A study of Mus musculus with 30 samples.

Results

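The atypical chemokine receptors of mouse skin were followed through 12-O-tetradecanoylphorbol-13-acetate (TPA)-induced inflammation in D6-deficient and wild-type (WT) mice. The members were every probe set of the Affymetrix mouse genome array annotated to Ccbp2 (the gene for D6), Darc, Ccrl1, Cxcr7 or Ccrl2, which gave 9 probe sets of 5 genes among 45037 probe sets, with 3 each for Ccbp2 and Ccrl1 and 1 each for Darc, Cxcr7 and Ccrl2. Groups were WT and D6-deficient female mice of strain 129–C57BL/6, 8 to 12 weeks old, whose shaved back skin received TPA at 50 uM in acetone in 3 applications 24 h apart and was taken 1, 2, 4 or 6 days later. Day 0 skin of each genotype carried no TPA. The titles call it untreated, whereas the study's account of the experiment gives acetone alone. Each of the 10 genotype-by-day groups held 3 arrays described as biological replicates, 30 in all, and p-values measure the spread between these samples. The D6-deficient mice lacked the gene in every cell, so a difference between genotypes was not tied to one cell type.

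Atypical chemokine receptors bind chemokines without the G protein signalling that drives leukocyte migration, and several of them take their ligands into the cell for degradation or carry them across it. D6 scavenges inflammatory CC chemokines and is known in skin from lymphatic endothelial cells. Darc, the Duffy antigen receptor on venular endothelium and red cells, binds inflammatory CC and CXC chemokines, Ccrl1 binds the homeostatic chemokines CCL19, CCL21 and CCL25, Cxcr7 binds CXCL11 and CXCL12, and Ccrl2 is a surface receptor of leukocytes and activated endothelium that binds chemerin without internalizing it.

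Promoter sequence is shown for the 3 members on which the results turn, Ccbp2 as the targeted gene, Cxcr7 and Ccrl2 for their distinct courses after TPA. Each run is the 250 bases before the RefSeq transcription start in GRCm38.p6, read 5′ to 3′ on the gene's strand, with capitals marking a match to a searched motif. They lie at chr9:121898105-121898354 on the plus strand for Ccbp2, chr1:90203730-90203979 on the plus strand for Cxcr7 and chr9:111057519-111057768 on the minus strand for Ccrl2.
Ccbp2: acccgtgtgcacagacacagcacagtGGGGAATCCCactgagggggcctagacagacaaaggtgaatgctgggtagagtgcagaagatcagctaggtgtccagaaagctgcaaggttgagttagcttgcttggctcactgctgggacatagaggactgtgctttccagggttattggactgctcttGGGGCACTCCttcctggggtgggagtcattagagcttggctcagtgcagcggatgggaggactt
Cxcr7: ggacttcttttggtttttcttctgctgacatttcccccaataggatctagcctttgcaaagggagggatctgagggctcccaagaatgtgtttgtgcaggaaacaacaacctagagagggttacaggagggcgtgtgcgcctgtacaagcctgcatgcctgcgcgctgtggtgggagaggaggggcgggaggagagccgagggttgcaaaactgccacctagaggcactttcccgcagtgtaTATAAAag
Ccrl2: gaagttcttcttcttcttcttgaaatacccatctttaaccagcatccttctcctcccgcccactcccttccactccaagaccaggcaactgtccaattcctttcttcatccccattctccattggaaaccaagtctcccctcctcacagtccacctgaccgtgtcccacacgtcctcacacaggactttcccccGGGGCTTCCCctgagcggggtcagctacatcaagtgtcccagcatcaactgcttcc
All 5 genes had a promoter in the table. The capitals in Ccbp2 are 2 matches to the NF-kB motif, whose first bases lie 224 and 64 bases before the start. The capitals in Ccrl2 are 1 NF-kB match, 56 bases before the start at the gene's 5′ end, whereas the windows of the 2 further Ccrl2 starts in the table held no match to any searched motif. The capitals in Cxcr7 are a TATAAA match 8 bases before it. Ccrl1, not shown, held TATAAA 185 bases before its start. The AP-1 motif TGANTCA and an interferon response motif (GAAA, any 2 bases, GAAA) were in none of the shown windows. Both strands were searched and no matches overlapped. Among 32851 mouse promoter windows of this length, 7.25% held the NF-kB motif, 12.4% TATAAA, 6.75% TGANTCA and 2.98% the interferon response motif. These matches describe letters and do not show binding.

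All 9 member probe sets passed the filter that left out the lowest 20% of probe sets by mean level, after which 36029 were tested. Array medians lay between 5.64 and 5.80 log2 units. The control probe sets for the 3′ and 5′ ends of beta-actin, a reading of RNA and label length, differed by 0.67 to 0.84 log2 units on the WT day 0 arrays and by 0.89 to 1.14 on the D6-deficient day 0 arrays, against 0.34 to 0.65 on every later array. Changes from day 0 therefore coincide with this shift, and each member call lost with the actin difference as a covariate is named as such.

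**Figure D1:**
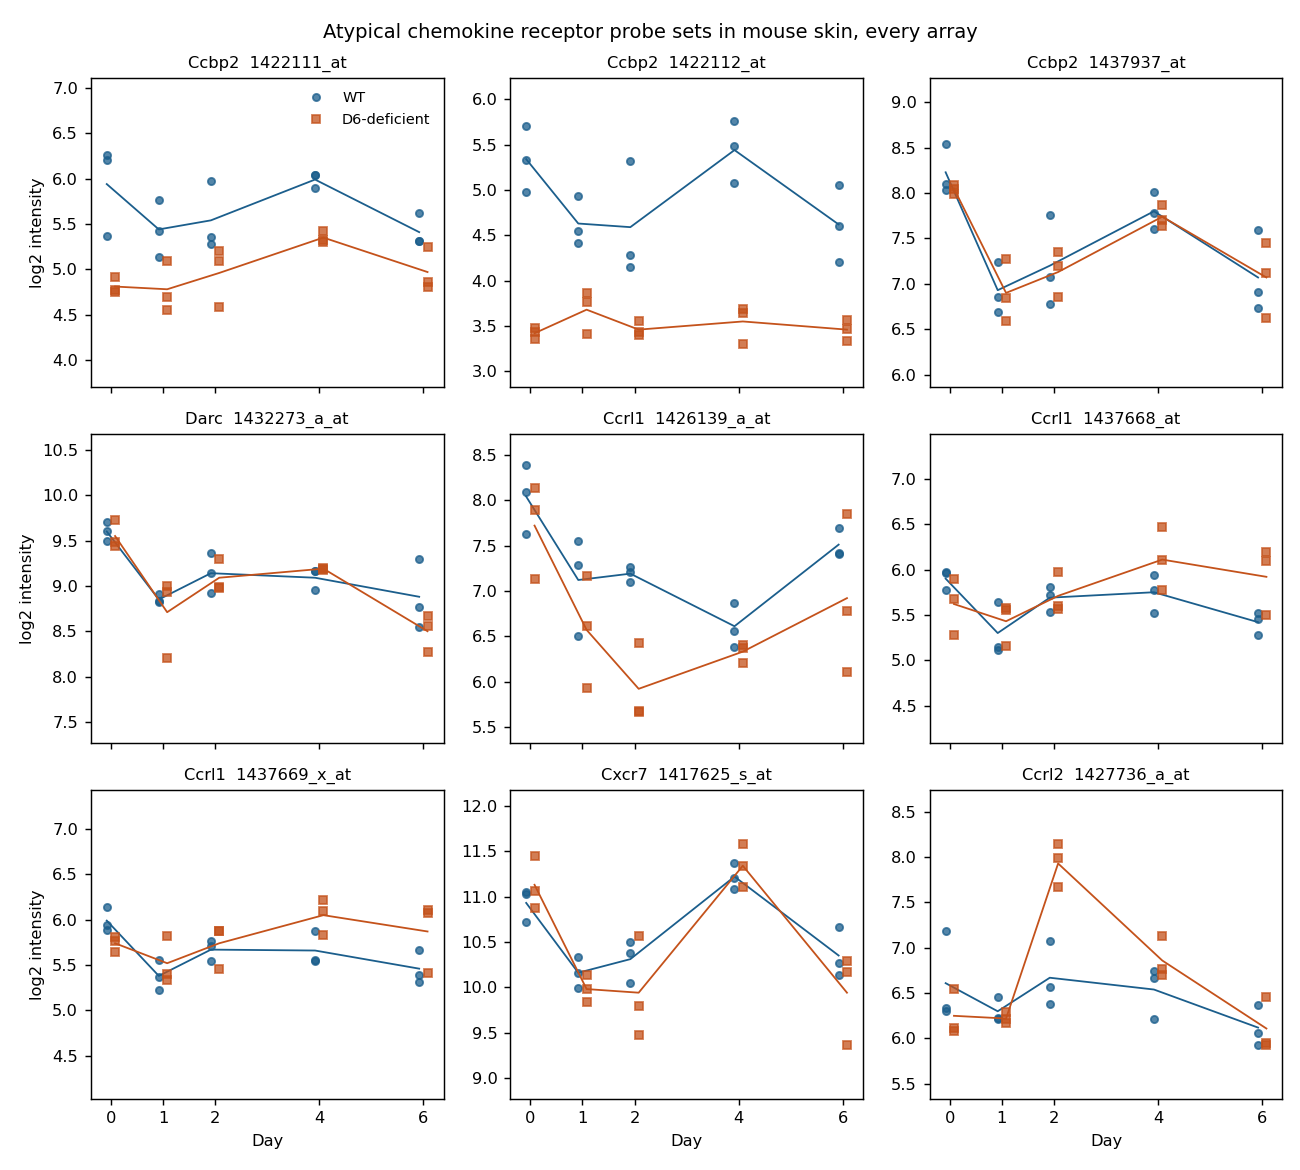
Level of each of the 9 member probe sets on every array (log2 of the deposited intensity) against days after the last TPA application, with WT as circles, D6-deficient as squares and lines joining group means of 3 arrays. The 2 genotypes separate on all arrays for Ccbp2 1422112_at, where WT arrays sit between 4.15 and 5.76 and D6-deficient arrays between 3.30 and 3.86, and Ccrl2 stands highest in D6-deficient skin on day 2.

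The targeted gene was read first. Averaged over all days Ccbp2 was lower in D6-deficient skin at 2 of its 3 probe sets, where 3.23% of all tested probe sets were lower, whereas at the third the genotypes were close. At 1422112_at the WT arrays read 4.98, 5.33 and 5.70 on day 0, 4.55, 4.93 and 4.41 on day 1, 4.28, 4.15 and 5.32 on day 2, 5.76, 5.08 and 5.48 on day 4, and 5.05, 4.21 and 4.60 on day 6. The D6-deficient arrays read 3.43, 3.36 and 3.48 on day 0, 3.86, 3.77 and 3.41 on day 1, 3.40, 3.43 and 3.56 on day 2, 3.69, 3.30 and 3.64 on day 4, and 3.57, 3.47 and 3.33 on day 6. The lowest of all 15 WT arrays (4.15) lay above the highest of all 15 D6-deficient arrays (3.86). Averaged over the days the D6-deficient level was lower by 1.41 log2 units (2.66-fold, with D6-deficient arrays mostly below the 3.72 that was the lowest mean kept by the filter, 95% interval of the difference -1.64 to -1.18, limma adjusted p = 1.3e-08). By day the difference was -1.91 on day 0 (adjusted p = 1.9e-04), -0.95 on day 1 (adjusted p = 0.25), -1.12 on day 2 (adjusted p = 0.0067), -1.90 on day 4 (adjusted p = 1.8e-04) and -1.16 on day 6 (adjusted p = 0.063). The arrays of the genotypes did not overlap on any of these days, including the 2 that missed the threshold. The day 2 call did not hold without WT day 2 replicate 3 (adjusted p = 0.071).

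At 1422111_at the difference ran the same way and was smaller. WT arrays read 5.37, 6.26 and 6.20 on day 0 against 4.75, 4.91 and 4.77 in D6-deficient skin, and on day 4 they read 6.04, 5.90 and 6.04 against 5.42, 5.32 and 5.30. The genotypes did not overlap on any day at this probe set either. The difference over all days was -0.69 (SE 0.10, 95% interval -0.89 to -0.49, adjusted p = 5.2e-05). Taken alone, day 0 passed (-1.13, adjusted p = 0.0079) and the other days did not (-0.66, -0.58, -0.64 and -0.44, adjusted p = 0.39, 0.15, 0.22 and 0.60). The day 0 call was lost without WT day 0 replicate 2 or without WT day 0 replicate 3, with an adjusted p of up to 0.057.

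At 1437937_at, the third Ccbp2 probe set, WT arrays on day 0 read 8.10, 8.04 and 8.54 and D6-deficient arrays 7.99, 8.05 and 8.09. The difference over all days was -0.07 with an interval of -0.30 to 0.16 (adjusted p = 0.80), and by day it lay between -0.18 and -0.01. The annotation places all 3 probe sets in Ccbp2. Their positions relative to the deleted sequence were not analysed here, so this probe set is no check of the genotype, and a level at it is not a measure of D6 protein.

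TPA was followed by lower Ccbp2 at 1437937_at in both genotypes. WT arrays read 6.69, 7.24 and 6.86 on day 1, 7.07, 6.78 and 7.76 on day 2, 8.01, 7.60 and 7.78 on day 4, and 7.59, 6.73 and 6.91 on day 6. The D6-deficient arrays read 6.59, 6.84 and 7.27, then 7.35, 7.20 and 6.85, then 7.70, 7.64 and 7.87, then 7.12, 6.62 and 7.45 on the same days. All arrays of days 1, 2, 4 and 6 lay below all day 0 arrays of their genotype. In WT skin the level fell 2.46-fold by day 1 (-1.30, SE 0.25, adjusted p = 4.4e-04), 2.04-fold by day 2 (-1.03, adjusted p = 0.0031) and 2.23-fold by day 6 (-1.15, adjusted p = 0.0016). In D6-deficient skin it fell 2.21-fold, 1.88-fold and 1.97-fold on those days (-1.14, -0.91 and -0.98, adjusted p = 8.1e-04, 0.0047 and 0.0037). Day 4 lay closer to day 0, at -0.43 in WT (adjusted p = 0.18) and -0.31 in D6-deficient skin (adjusted p = 0.34). The rise from day 2 to day 4 passed in neither genotype (0.60 in WT and 0.61 in D6-deficient skin, adjusted p = 0.11 and 0.098). The D6-deficient falls were not called with the actin difference as a covariate, while the WT falls were (-1.24, -0.98 and -1.10, adjusted p = 0.0096, 0.016 and 0.020). In these whole-skin extracts, fewer cells of a type and less RNA per cell cannot be told apart.

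The other Ccbp2 probe sets gave weaker time courses. At 1422112_at the WT level fell by 0.71 by day 1, by 0.75 by day 2 and by 0.71 by day 6 (adjusted p = 0.039, 0.026 and 0.039) and on day 4 differed from day 0 by 0.11 (adjusted p = 0.76). Each of these 3 calls was lost without WT day 0 replicate 2 or 3 and also without 2 of the 3 treated arrays of its day (replicates 1 and 3 of day 1, 1 and 2 of day 2, 2 and 3 of day 6), with an adjusted p of up to 0.24, and all 3 were lost with the actin covariate. D6-deficient values were between 0.03 and 0.26 above day 0 and passed on no day. Those arrays lay between 3.30 and 3.86, mostly below the 3.72 that was the lowest mean kept, so a further fall could hardly be read there. The difference between the genotypes' changes at this probe set did not pass (0.96 on day 1, adjusted p = 0.35, 0.79 on day 2, adjusted p = 0.24, and 0.75 on day 6, adjusted p = 0.60). The same floor limits that comparison, which cannot tell whether the courses differ. At 1422111_at no WT change passed, and D6-deficient skin was 0.54 higher on day 4 than on day 0 (adjusted p = 0.048), a call that was lost in 16 of 30 fits that each left out 1 array and with the actin covariate.

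Darc (1432273_a_at), which displays and transports chemokines at venules, was lower after TPA in both genotypes. WT arrays read 9.70, 9.60 and 9.50 on day 0, 8.82, 8.83 and 8.91 on day 1, 9.36, 9.14 and 8.92 on day 2, 9.16, 9.16 and 8.96 on day 4, and 9.30, 8.55 and 8.77 on day 6. D6-deficient arrays read 9.73, 9.48 and 9.44, then 8.21, 9.0 and 8.93, then 8.98, 9.30 and 8.99, then 9.20, 9.19 and 9.17, then 8.67, 8.27 and 8.56. No treated array reached the day 0 range of its genotype. The WT level fell 1.68-fold by day 1 (-0.75, SE 0.18, adjusted p = 0.0035), 1.42-fold by day 4 (-0.50, adjusted p = 0.027) and 1.65-fold by day 6 (-0.72, adjusted p = 0.0051), and the day 2 value was -0.46 (adjusted p = 0.059). The D6-deficient level fell 1.79-fold by day 1 (-0.84, adjusted p = 7.3e-04) and 2.07-fold by day 6 (-1.05, adjusted p = 1.1e-04). Its day 2 value of -0.46 (adjusted p = 0.045) kept its call in 16 of 30 fits without 1 array, and its day 4 value was -0.36 (adjusted p = 0.11).

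Among the WT Darc calls, day 6 was lost without WT day 6 replicate 2 (adjusted p = 0.057) and day 4 without WT day 0 replicate 1, WT day 0 replicate 2 or WT day 4 replicate 3 (adjusted p up to 0.10). With the actin covariate the WT falls on days 1 and 6 were still called (-0.68 and -0.66, adjusted p = 0.045 and 0.049), and the WT day 4 fall and all D6-deficient falls were not. Between days 4 and 6, a comparison added after the day means had been seen, D6-deficient Darc fell by 0.68 (adjusted p = 0.0047). The genotypes differed in Darc by -0.10 over all days, with an interval of -0.27 to 0.06 (adjusted p = 0.53). Day 6 gave the widest gap, -0.37, with an unadjusted p of 0.046 and an adjusted p of 0.59.

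Cxcr7 (1417625_s_at), a scavenger of CXCL12, was low on days 1, 2 and 6 and near its day 0 level on day 4. WT arrays read 11.05, 10.72 and 11.03 on day 0, 10.33, 10.16 and 9.99 on day 1, 10.38, 10.05 and 10.50 on day 2, 11.21, 11.08 and 11.37 on day 4, and 10.66, 10.13 and 10.27 on day 6. D6-deficient arrays read 11.06, 11.45 and 10.87, then 9.84, 9.98 and 10.13, then 10.57, 9.79 and 9.47, then 11.58, 11.34 and 11.11, then 10.29, 9.36 and 10.17. The arrays of days 0 and 4 all lay above those of days 1, 2 and 6, over both genotypes. WT Cxcr7 fell 1.71-fold by day 1 (-0.77, SE 0.24, adjusted p = 0.019), and its values on days 2, 4 and 6 were -0.63, 0.29 and -0.58 (adjusted p = 0.054, 0.36 and 0.082). The WT day 1 call was lost without WT day 0 replicate 1, WT day 0 replicate 3 or WT day 1 replicate 3 (adjusted p up to 0.079). In D6-deficient skin Cxcr7 fell 2.21-fold by day 1 (-1.14, adjusted p = 5.8e-04), 2.28-fold by day 2 (-1.19, adjusted p = 3.2e-04) and 2.27-fold by day 6 (-1.19, adjusted p = 5.4e-04), with 0.21 on day 4 (adjusted p = 0.50). Every fall from day 0 lost its call with the actin covariate, which moved the D6-deficient values to -0.37, -0.51 and -0.53 (adjusted p = 0.67, 0.44 and 0.44).

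The return of Cxcr7 on day 4 does not involve the day 0 arrays. From day 2 to day 4 it rose 1.88-fold in WT (0.91, adjusted p = 0.0095) and 2.64-fold in D6-deficient skin (1.40, adjusted p = 1.7e-04). From day 4 to day 6 it fell 1.82-fold in WT (-0.87, adjusted p = 0.0095) and 2.64-fold in D6-deficient skin (-1.40, adjusted p = 7.1e-05). The rise and the fall share the day 4 arrays. Both passed in both genotypes with the actin covariate, and in WT the rise was lost without WT day 2 replicate 2 or WT day 4 replicate 3 (adjusted p up to 0.054), and the fall without WT day 4 replicate 3 (adjusted p = 0.050). Between genotypes Cxcr7 differed by -0.13 over all days (interval -0.35 to 0.09, adjusted p = 0.57), and no difference between their changes from day 0 passed.

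Ccrl1, which removes CCL19, CCL21 and CCL25, fell after TPA at 1426139_a_at and was lower in D6-deficient skin on day 2. On day 0 WT arrays read 8.09, 8.39 and 7.63 and D6-deficient arrays 7.89, 7.13 and 8.14. WT then read 6.50, 7.55 and 7.29 on day 1, 7.10, 7.21 and 7.26 on day 2, 6.38, 6.87 and 6.56 on day 4, and 7.69, 7.41 and 7.42 on day 6. D6-deficient skin read 5.93, 6.61 and 7.16, then 6.42, 5.66 and 5.68, then 6.21, 6.37 and 6.40, then 6.11, 6.78 and 7.85. The lowest WT group was day 4, and the lowest D6-deficient group was day 2, where no array reached the WT range. The WT level fell 2.7-fold by day 4 (-1.43, SE 0.35, adjusted p = 0.0022), with -0.92, -0.85 and -0.53 on days 1, 2 and 6 (adjusted p = 0.059, 0.079 and 0.31). The D6-deficient level fell 2.22-fold by day 1 (-1.15, adjusted p = 0.012), 3.47-fold by day 2 (-1.80, adjusted p = 2.6e-04) and 2.62-fold by day 4 (-1.39, adjusted p = 0.0026), with -0.80 on day 6 (adjusted p = 0.085). Of these, only the D6-deficient day 1 fall lost its call when 1 array was left out, D6-deficient day 0 replicate 3 or D6-deficient day 1 replicate 1 (adjusted p up to 0.098). With the actin covariate the values were further from 0 (-2.08 in WT on day 4 and -2.71 in D6-deficient skin on day 2, adjusted p = 0.0030 and 0.0042), although the D6-deficient day 1 call was lost (-2.21, adjusted p = 0.060).

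The genotype difference of Ccrl1 at this probe set was -1.27 on day 2 (2.41-fold lower in D6-deficient skin, interval -1.99 to -0.54, adjusted p = 0.036) and -0.60 over all days (1.52-fold, SE 0.16, adjusted p = 0.023), the latter not called with the actin covariate (-0.50, adjusted p = 0.070). The other days gave -0.32, -0.55, -0.28 and -0.59 and did not pass. The day 2 call was lost without any one of 5 day 2 arrays, WT replicates 1, 2 and 3 and D6-deficient replicates 2 and 3 (adjusted p up to 0.17). The difference between the genotypes' changes from day 0 to day 2 was -0.95 (SE 0.50, adjusted p = 0.35), so a stronger fall in D6-deficient skin was not established. The 2 other Ccrl1 probe sets, 1437668_at and 1437669_x_at, did not follow this course, and none of their genotype differences passed. On day 0 these ran the same way (-0.28 and -0.25, adjusted p = 0.57 and 0.55), and on all later days the other way. They were 0.03 and 0.07 on day 2 (adjusted p = 0.98 and 0.91) and 0.15 at both over all days (adjusted p = 0.39 and 0.29). At 1437668_at the 15 WT arrays lay between 5.11 and 5.97 (median 5.64) and the 15 D6-deficient arrays between 5.16 and 6.47 (median 5.68), and at 1437669_x_at they lay between 5.23 and 6.14 (median 5.56) and between 5.33 and 6.22 (median 5.82). In WT skin both fell by 0.60 by day 1 (adjusted p = 0.028 and 0.011), and 1437669_x_at fell by 0.53 by day 6 (adjusted p = 0.026). All 3 of these calls were lost with the actin covariate, and each without WT day 0 replicate 1. That of 1437668_at was lost too without WT day 0 replicate 3 or WT day 1 replicate 2 or 3, and that of 1437669_x_at on day 6 without WT day 6 replicate 1 or 2 (adjusted p up to 0.11). In D6-deficient skin 1437668_at was 0.49 higher on day 4 (adjusted p = 0.049, called in 8 of 30 fits without 1 array).

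Ccrl2 (1427736_a_at), the chemerin-binding member, rose in D6-deficient skin on day 2, and the difference between the genotypes' changes passed for this member probe set alone. D6-deficient arrays read 6.12, 6.08 and 6.55 on day 0, 6.21, 6.17 and 6.29 on day 1, 7.67, 7.99 and 8.14 on day 2, 6.70, 7.13 and 6.77 on day 4, and 5.95, 5.93 and 6.46 on day 6. WT arrays read 6.30, 6.34 and 7.19, then 6.21, 6.46 and 6.23, then 6.38, 7.08 and 6.57, then 6.67, 6.22 and 6.74, then 6.37, 5.93 and 6.06. The 3 D6-deficient day 2 arrays were the highest of all 30. In D6-deficient skin the level was 3.21-fold above day 0 on day 2 (1.68, SE 0.22, interval 1.23 to 2.13, adjusted p = 1.9e-06) and 3.27-fold above day 1 (1.71, adjusted p = 1.1e-05). It then fell 2.1-fold from day 2 to day 4 (-1.07, adjusted p = 0.0012) and by 0.75 from day 4 to day 6 (adjusted p = 0.011), the latter lost without D6-deficient day 4 replicate 2 or D6-deficient day 6 replicate 2 (adjusted p up to 0.063). Day 4 was 0.61 above day 0 (adjusted p = 0.028), a call lost without D6-deficient day 0 replicate 1 or 2 or D6-deficient day 4 replicate 2, and 0.01 above it with the actin covariate (adjusted p = 0.99).

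WT Ccrl2 did not pass on any day, with changes of -0.31, 0.06, -0.07 and -0.49 from day 0 on days 1, 2, 4 and 6. On day 2 D6-deficient skin held 2.39-fold more Ccrl2 than WT (1.26, interval 0.81 to 1.71, adjusted p = 7.7e-04), while the differences on days 0, 1, 4 and 6 were -0.36, -0.08, 0.32 and -0.01 and did not pass. The change from day 0 to day 2 differed between the genotypes by 1.62 (SE 0.31, interval 0.98 to 2.26, adjusted p = 0.0023). It passed in all 30 fits without 1 array, between 1.33 and 1.82, and with the actin covariate at 1.26 (adjusted p = 0.049).

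**Figure D2:**
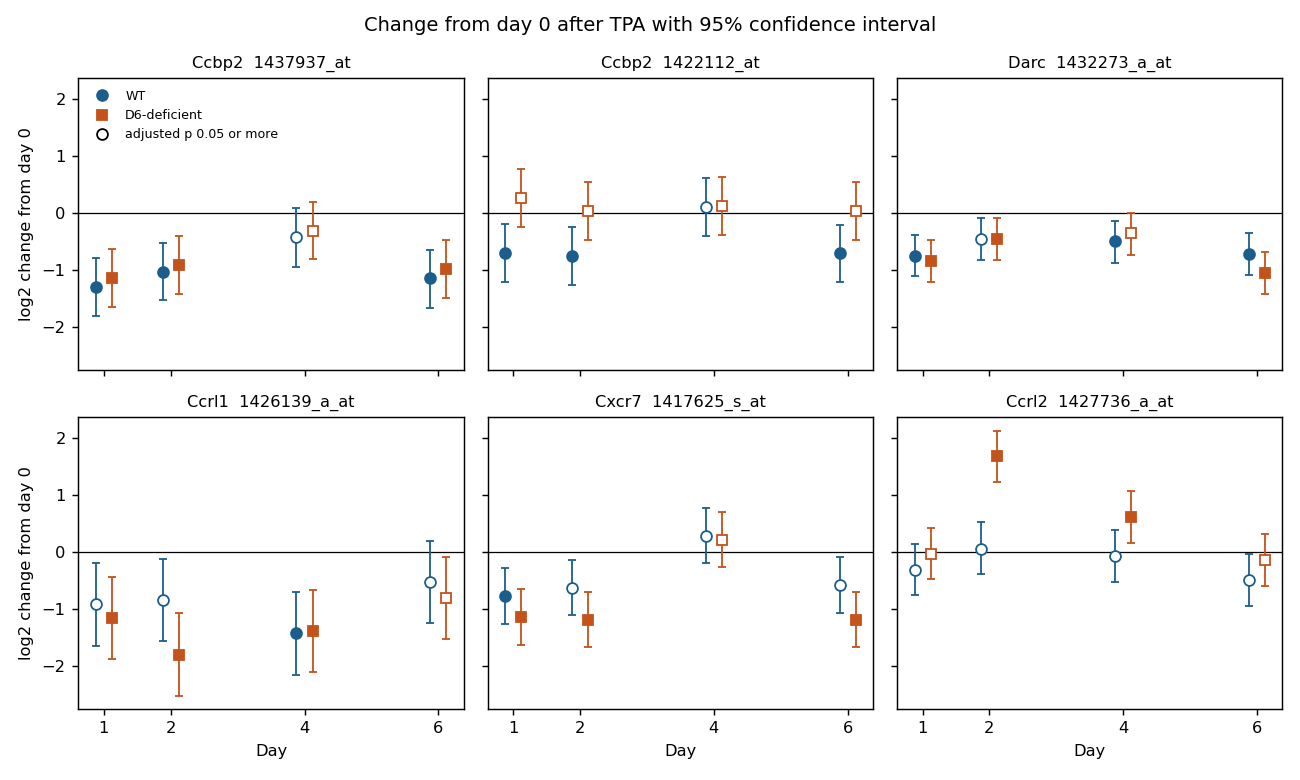
Change from day 0 (log2) on days 1, 2, 4 and 6 for 6 member probe sets, with 95% confidence intervals and filled symbols for an adjusted p under 0.05; WT and D6-deficient are drawn side by side. Cxcr7 and Ccbp2 1437937_at lie below 0 on days 1, 2 and 6 and nearer to 0 on day 4, and Ccrl2 reaches 1.68 in D6-deficient skin on day 2.

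Counted over the 9 member probe sets, WT skin had 6 lower on day 1, where 12.7% of all tested probe sets were called lower, 2 on day 2 (15.0% of all), 2 on day 4 (21.8%) and 4 on day 6 (11.9%), and none higher. Without the actin covariate, day 1 thus stood far above the background share and day 4, at 2 of 9, close to it. With that covariate, only Darc and 1 probe set of Ccbp2 kept their calls among the 6 of day 1. No background share is given with the covariate, so the day 1 excess was not established with it. The other counts, shares and medians here are from the fit without it. The median change of the 9 was -0.71, -0.46, -0.16 and -0.53, against medians of all tested probe sets between -0.01 and 0.01. In D6-deficient skin 4 were lower on day 1 (18.1% of all lower) and 3 on day 6 (15.7%). On day 2 Ccrl2 was higher and 4 were lower, 5 of 9 against 38.1% of all called in either direction, and on day 4 3 were higher and 1 lower, 4 of 9 against 41.1%. The day 4 share was thus near the background. The 3 higher on day 4 were Ccbp2 1422111_at, Ccrl1 1437668_at and Ccrl2. Changes on the 4 days share the day 0 arrays of their genotype, and probe sets of 1 gene share their transcript, so these counts are not independent.

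Between consecutive days, also compared after the values were seen, none of the 9 passed in WT from day 1 to 2 (1.20% of all called, 0 of 9 at an unadjusted p under 0.05, against 13.5% of all), 2 were higher from day 2 to 4 (14.5%) and 3 lower from day 4 to 6 (22.1%), the background shares being in either direction. In D6-deficient skin 1 was higher from day 1 to 2 (10.4%), 1 higher and 1 lower from day 2 to 4 (16.3%), and 4 lower from day 4 to 6 (31.4%). The WT day 4 to 6 falls were Cxcr7 and Ccbp2 at 1422112_at (-0.82, adjusted p = 0.018) and 1437937_at (-0.73, adjusted p = 0.035), and the D6-deficient ones were Cxcr7, Darc, Ccrl2 and Ccbp2 1437937_at (-0.67, adjusted p = 0.039). The Ccbp2 falls among these were lost without any one of 4 arrays in WT (1422112_at and 1437937_at alike, day 4 replicates 1 and 3 and day 6 replicates 2 and 3) and without 5 of the 6 arrays in D6-deficient skin (all but day 6 replicate 3), with an adjusted p of up to 0.22.

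**Figure D3:**
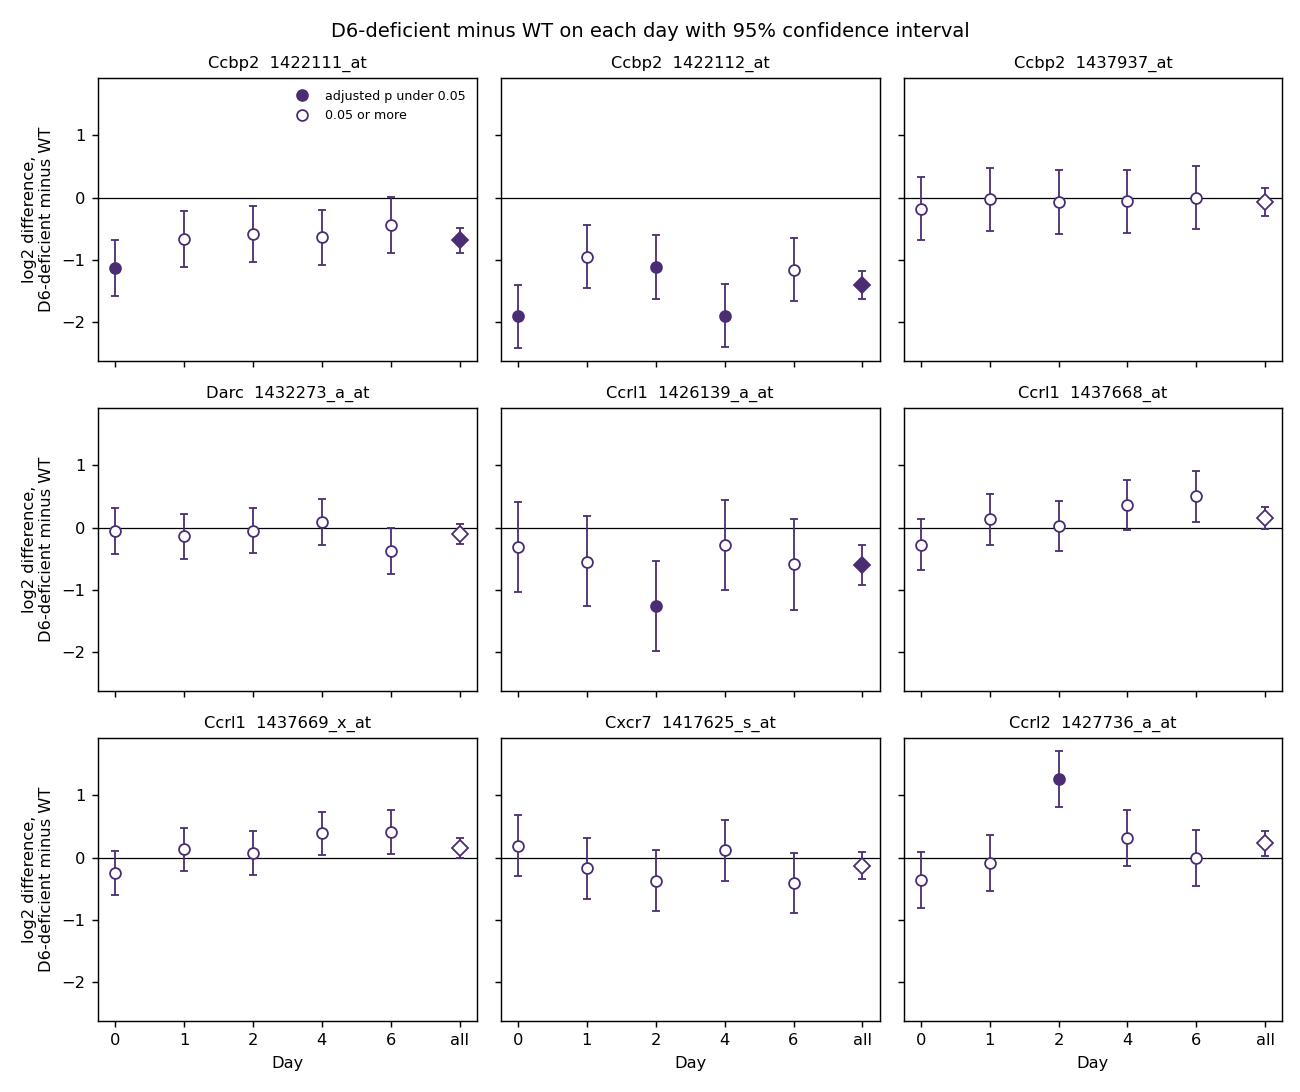
D6-deficient minus WT level (log2) for the 9 member probe sets on each day and over all days (diamond), with 95% confidence intervals and filled symbols for an adjusted p under 0.05. Ccbp2 1422112_at and 1422111_at lie below 0 throughout, Ccrl2 stands at 1.26 on day 2, and Darc and Cxcr7 have intervals over all days that include 0.

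Between genotypes, 2 member probe sets passed on day 0, both of Ccbp2 and lower (0.855% of all tested called lower), none on day 1 (0.0555% in either direction), 3 on day 2 (4.45% in either direction), 1 of Ccbp2 on day 4 (0.225% lower) and none on day 6 (0.125% in either direction). At an unadjusted p under 0.05 the counts were 2, 2, 4, 3 and 4 of 9 in either direction, against 14.3%, 8.01%, 15.5%, 10.1% and 8.37% of all tested. Over all days 3 of 9 were lower, Ccbp2 at 1422112_at and 1422111_at and Ccrl1 1426139_a_at, against 3.23% of all. For the difference between the genotypes' changes the counts were 0 on day 1 (0.0194% of all), 1 on day 2 (Ccrl2, against 2.78% of all higher), 0 on day 4 (0.608%) and 0 on day 6 (0.0250%), with 1, 2, 3 and 4 of 9 at an unadjusted p under 0.05, against 9.70%, 16.9%, 11.0% and 8.01% of all tested. Since Ccbp2 is the deleted gene, its share of these calls is a check of the labels.

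Few groups that were neighbours in the order of means separated. For Ccrl2 the D6-deficient day 2 group (7.93) did not overlap the next, D6-deficient day 4 (6.86), and the 8 other neighbouring pairs overlapped. For Cxcr7 the single gap lay between WT day 0 (10.93) and WT day 6 (10.35), with both genotypes' days 0 and 4 above it and their days 1, 2 and 6 below. For Darc it lay between D6-deficient day 0 (9.55) and D6-deficient day 4 (9.19), so that day 0 skin of both genotypes stood above all treated groups. Ccrl1 1426139_a_at separated between WT day 6 (7.51) and WT day 2 (7.19) and nowhere else. Ccbp2 1422112_at separated between WT day 0 (5.34) and WT day 1 (4.63) and between WT day 2 (4.59) and D6-deficient day 1 (3.68), while 1437937_at had no gap between neighbours.

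The ligands of these receptors were taken as lists, with the brightest probe set of each gene. Of 10 inflammatory CC chemokines that D6 binds, 4, 4, 9 and 6 were higher than on day 0 in WT skin on days 1, 2, 4 and 6, and 4, 7, 8 and 1 in D6-deficient skin, with none lower in either. In D6-deficient skin 38.1% of all tested probe sets were called in either direction on day 2 and 41.1% on day 4. The share called higher is not given, so counts of genes above day 0 in this and later lists were not set against it. On day 2 the genotypes differed in 6 of the 10, with 5 higher and 1 lower in D6-deficient skin (list median 1.15 against -0.02 for all tested, 4.45% of all called in either direction), and on days 0, 1, 4 and 6 in none. The leukocyte attractants Ccl3 and Ccl4 gave the widest gaps. Ccl3 read 4.79, 7.42 and 5.21 in WT and 9.51, 9.82 and 9.25 in D6-deficient skin on day 2, which was 13.2-fold higher (3.72, SE 0.44, adjusted p = 5.9e-06). Ccl4 read 5.65, 6.97 and 6.07 against 9.18, 10.03 and 9.32, 9.73-fold higher (3.28, SE 0.27, adjusted p = 1.9e-08). The monocyte attractants Ccl2 and Ccl7 were 2.53-fold and 2.4-fold higher (adjusted p = 5.7e-04 and 0.017), and Ccl5 was 2.98-fold higher (adjusted p = 3.0e-04). Ccl22, a ligand of Ccr4, was 1.93-fold lower (-0.95, adjusted p = 0.032). The Ccl22 call was lost without any one of 5 day 2 arrays (all but D6-deficient replicate 1, adjusted p up to 0.19), and that of Ccl7 without WT day 2 replicate 2 or D6-deficient day 2 replicate 1 or 2 (adjusted p up to 0.090).

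Darc also binds the neutrophil-attracting ELR CXC chemokines. Of 5 such genes, 1 was higher on day 1, 4 on day 2 and 5 on day 4 in WT skin, and 5 on each of days 2 and 4 in D6-deficient skin. None passed on day 1 in D6-deficient skin or on day 6 in either genotype. The day 1 gene in WT skin was Cxcl2, at 6.17, 6.18 and 6.84 against 3.37, 3.18 and 3.49 on day 0 (adjusted p = 0.0015), a call lost with the actin covariate (adjusted p = 0.063). The median change of the list by day 4 was 5.68 (WT) and 6.13 (D6-deficient). These changes start from low day 0 list levels, 3.96 to 4.23 in WT and 4.27 to 4.76 in D6-deficient skin. Cxcl5 read 11.60, 11.04 and 11.82 in WT and 11.99, 12.12 and 11.92 in D6-deficient skin on day 4. Its day 0 means of 3.04 and 3.27 lay below 3.72, the lowest mean over all arrays that the filter kept, so no fold is given. On day 2 the genotypes differed in 4 of 5 (list median 2.81), against 4.45% of all tested called in either direction. Cxcl3 read 4.67, 6.67 and 3.55 in WT and 9.43, 10.06 and 8.72 in D6-deficient skin, 21.8-fold higher (4.44, SE 0.53, adjusted p = 5.6e-06), and Cxcl2, Cxcl5 and Ppbp were 13.4-fold, 7.01-fold and 1.95-fold higher (adjusted p = 8.4e-04, 2.1e-05 and 0.038). The Cxcl3 fold rests on low and widely spread WT arrays, the lowest of them below 3.72. The Ppbp call was lost without any one of 5 day 2 arrays (all but WT replicate 2, adjusted p up to 0.20). Cxcl1 was 0.48 higher at its brightest probe set (adjusted p = 0.44) and 1.01 higher at 1419209_at (adjusted p = 0.041).

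Of the 5 ligand genes of Ccrl1, covered by 3 tested probe sets, 1 was lower and none higher in D6-deficient skin on day 2 (4.45% of all called in either direction). Ccl21a, the lymphatic chemokine that guides dendritic cells, read 11.61, 11.64 and 11.94 in WT and 10.73, 10.50 and 10.66 in D6-deficient skin on day 2, 2.15-fold lower (-1.10, SE 0.23, adjusted p = 0.0046). From day 0 to day 4 it fell 3.46-fold in WT and 4.83-fold in D6-deficient skin. Ccl19 and Ccl25 did not differ between genotypes on day 2 past the threshold (-0.56 and 0.27, adjusted p = 0.43 and 0.34). Other Ccl21 genes share probe sets with Ccl21a, so its value may hold their signal. Cxcl12, bound by Cxcr7 and Cxcr4, was higher than on day 0 on every day in both genotypes, 2.7-fold in WT and 3.45-fold in D6-deficient skin on day 4, the day on which Cxcr7 was near its day 0 level. Of these Cxcl12 rises, that of D6-deficient skin on day 1 lost its call with the actin covariate (0.64, adjusted p = 0.11). Cxcl11 and Cxcl12 were 0.93 and 0.32 higher in D6-deficient skin on day 2 (adjusted p = 0.10 and 0.12). Rarres2, which encodes chemerin, was 3.37-fold and 4.48-fold above day 0 on day 4 in WT and D6-deficient skin and differed by 0.05 between them on day 2 (adjusted p = 0.95), the day of the Ccrl2 peak. Its signalling receptor Cmklr1 differed by 0.27 on day 2 (adjusted p = 0.70).

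**Figure D4:**
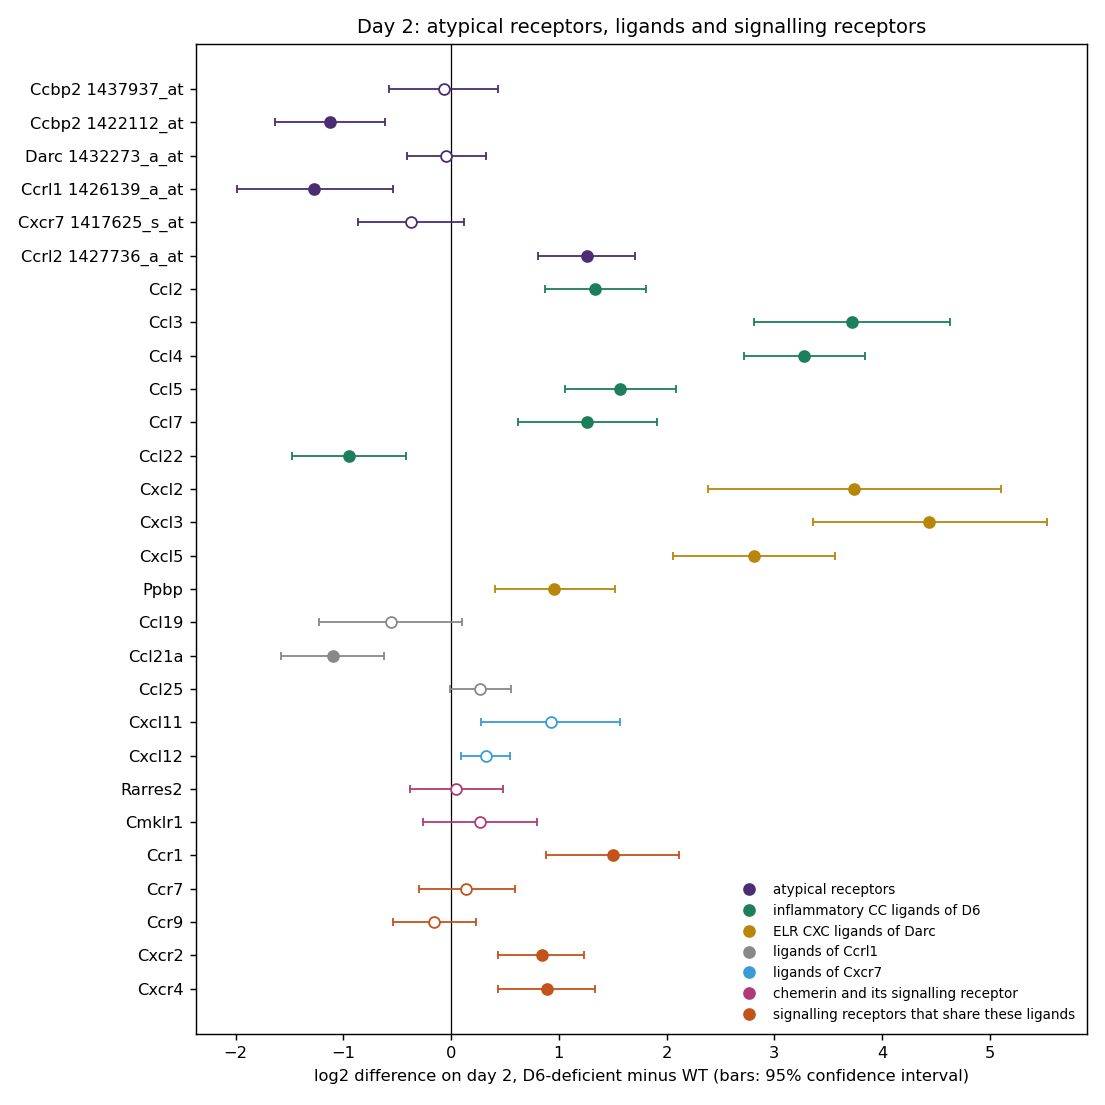
D6-deficient minus WT level (log2) on day 2 for 6 member probe sets and 22 named ligands and receptors, with 95% confidence intervals and filled symbols for an adjusted p under 0.05. The ELR CXC and inflammatory CC ligands reach up to 4.44 (Cxcl3), Ccl21a and Ccl22 lie below 0, and Ccrl2 at 1.26 is the only member above 0 that passed.

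Among 10 signalling receptors that share these ligands, 8 were higher than on day 0 on day 2 and 7 on day 4 in WT skin, and 7 on each of these days in D6-deficient skin. Between genotypes 3 were higher in D6-deficient skin on day 2, where 4.45% of all tested were called in either direction. They were Ccr1 (2.83-fold, adjusted p = 0.0031), the neutrophil receptor Cxcr2 (1.78-fold, adjusted p = 0.0098) and Cxcr4 (1.85-fold, adjusted p = 0.016). The Cxcr4 call was lost without WT day 2 replicate 1 or 3 or D6-deficient day 2 replicate 2 or 3 (adjusted p up to 0.11), and that of Cxcr2 without WT day 2 replicate 3 (adjusted p = 0.075). On the other days 1 receptor was lower on day 0, none passed on day 1, 1 was higher on day 4 and 1 lower on day 6. Besides these, Ccr2 was lower on day 0 at 1421188_at (-1.32, adjusted p = 0.0041) but not past the threshold at its brightest probe set (-0.76, adjusted p = 0.078). The day 4 gene was Cxcr2 (2.07-fold, adjusted p = 0.0079), a call lost without WT day 4 replicate 2 or D6-deficient day 4 replicate 2 (adjusted p = 0.071 and 0.058). Another probe set of Ccr1 gave 0.87 and did not pass (adjusted p = 0.35). Ccr7, the receptor for the Ccrl1 ligands Ccl19 and Ccl21a, differed by 0.14 (adjusted p = 0.84) and rose in both genotypes by day 4 (4.37 in WT and 3.75 in D6-deficient skin). Ccr9, the receptor for the Ccrl1 ligand Ccl25, was lower in D6-deficient skin on day 0 at 1427419_x_at, with 6.08, 6.08 and 5.86 in WT against 3.97, 3.78 and 4.31 (3.96-fold, adjusted p = 5.5e-06), whereas its other 3 tested probe sets differed by -0.24 to -0.15 and did not pass. The same probe set was lower on day 6 (-1.45, adjusted p = 6.7e-04), a call lost when the probe sets of the gene were averaged (-0.46, adjusted p = 0.052).

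Of 11 arrestin, Rab and actin regulators known from receptor trafficking, none differed between genotypes on any day at its brightest probe set. Another probe set of Arrb2 (1426239_s_at) was 0.50 higher in D6-deficient skin on day 2 (adjusted p = 0.026), against 0.51 at the brightest (adjusted p = 0.13). On day 4 WT skin had 3 higher and 3 lower, and D6-deficient skin 4 higher and 1 lower. Of all tested probe sets, 21.8% were called lower in WT and 41.1% in either direction in D6-deficient skin that day. The WT lower count and the D6-deficient count were thus near the background. Arrb2, which encodes beta-arrestin 2, was 1.15 and 1.14 above day 0 in WT and D6-deficient skin on day 4, and Rab11a, a marker of recycling endosomes, was 0.87 and 0.60 above it. The actin-severing gene Cfl1 was 0.71 and 0.75 higher, and the kinase gene Pak1 fell by 0.42 and by 0.80 (adjusted p = 0.044 and 3.2e-04). The WT fall of Pak1 was not called without WT day 0 replicate 2 or 3 or WT day 4 replicate 1 or 3 (adjusted p up to 0.20), nor with the actin covariate.

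Marker lists of the cells in whole skin were read beside these results, as the mean log2 level of each list. All 5 skeletal muscle genes were lower than on day 0 on every later day in both genotypes and lower in D6-deficient skin over all days. Of all tested probe sets, 11.9% to 21.8% were called lower on these days in WT skin, and 3.23% over all days between genotypes. The list lay at 13.86 to 14.05 in WT and 13.71 to 13.84 in D6-deficient skin on day 0, at 12.48 to 13.05 and 11.69 to 12.26 on day 1, at 12.72 to 12.81 and 12.07 to 12.36 on day 2, at 13.04 to 13.24 and 12.41 to 13.16 on day 4, and at 12.70 to 13.19 and 11.68 to 12.35 on day 6. It was thus lower on the days on which Ccbp2 1437937_at, Darc and Cxcr7 were lower, but also on day 4, when Cxcr7 was not. Its part in those falls was not tested. Of 8 lymphatic endothelial markers 5 were lower on day 1 in D6-deficient skin and 1 in WT, with list levels of 6.71 to 7.0 and 7.22 to 7.49 against 7.68 to 7.80 and 7.74 to 7.94 on day 0. Of all tested probe sets 18.1% were called lower that day in D6-deficient skin and 12.7% in WT, so the WT count was near the background. Between genotypes 1 lymphatic marker was higher in D6-deficient skin on each of days 0, 2, 4 and 6, and none passed on day 1. Over all days 3 lymphatic markers were lower in D6-deficient skin, where 3.23% of all tested were called lower, and 1 was higher. Of 10 blood endothelial markers 2 were lower and 1 higher in WT and 4 lower and 1 higher in D6-deficient skin on day 1, beside 12.7% and 18.1% of all called lower. No blood endothelial marker differed between genotypes on any day. The part of either list in the Ccbp2 and Darc falls was not tested.

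Some leukocyte marker lists were also higher in D6-deficient skin on day 2. Of 8 tested neutrophil markers 6 exceeded WT in D6-deficient skin, with list levels of 9.87 to 11.19 against 8.12 to 8.92, and of 7 monocyte and macrophage markers 3 were higher, with levels of 11.17 to 11.32 against 10.47 to 10.82. Of all tested probe sets 4.45% were called between genotypes that day in either direction. The T cell list was not higher on day 2, at 7.53 to 7.75 in D6-deficient skin against 7.64 to 7.99 in WT. Nor was the B cell list, at 5.28 to 5.34 against 5.29 to 5.51. The mast cell list lay at 9.50 to 9.89 in D6-deficient skin against 9.26 to 9.49 in WT on day 2. By day 4 it lay at 8.97 to 9.33 against 8.85 to 9.16. On day 4 the neutrophil list stayed at 10.15 to 10.99 in D6-deficient skin and reached 9.51 to 10.46 in WT. The monocyte and macrophage list then lay at 10.50 to 10.83 in D6-deficient skin and 10.93 to 11.17 in WT. Ccrl2 on day 4 lay at 6.70 to 7.13 in D6-deficient skin and 6.22 to 6.74 in WT. Of 4 markers of activated venules 3 were higher than on day 0 on day 2 and 4 on day 4 in D6-deficient skin (38.1% and 41.1% of all called in either direction), against 0 and 2 in WT. The part of these cells in the Ccrl2 rise was not tested. The keratinocyte list, of 6 genes, lay at 10.37 to 11.77 in WT and 9.04 to 10.40 in D6-deficient skin on day 4 and between 12.19 and 13.48 in all other groups, and its part in the Ccrl1 values on day 4 was not tested. Ms4a1, a marker of B cells, was below the filter on low values, and no probe set was matched to Retnlg, Ly6g or Plin1.

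**Figure D5:**
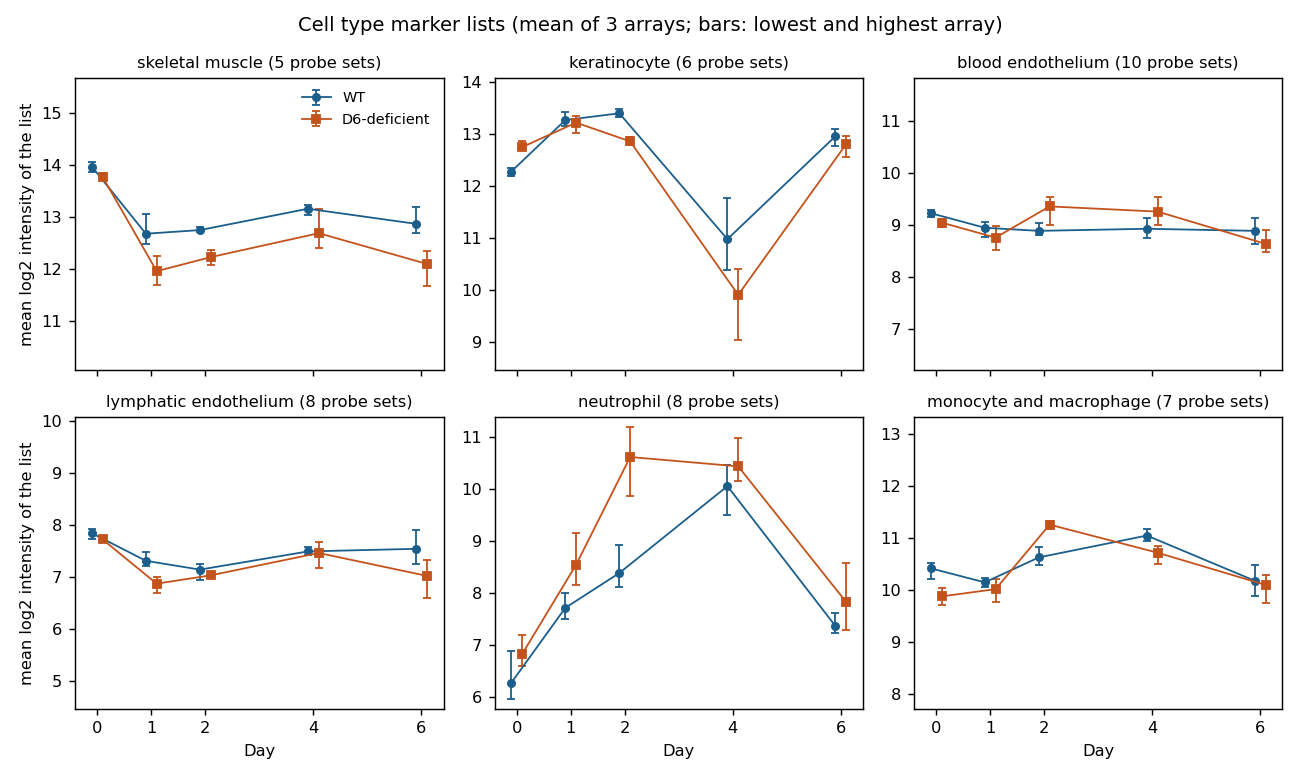
Mean log2 level of 6 cell marker lists by day, with points for the mean of 3 arrays and bars from the lowest to the highest array, WT and D6-deficient side by side. Skeletal muscle drops after day 0 in both genotypes, and the neutrophil list is higher in D6-deficient skin on day 2 (9.87 to 11.19 against 8.12 to 8.92).

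The genes most like each member were found by Pearson correlation over the 30 arrays among 4523 candidate probe sets, a description in which all arrays share the same time course and genotypes. Closest to Ccrl2 were Cd300a (r = 0.87), Rtp4 (0.85), Fam26f (0.85), 5430427O19Rik (0.83) and C3ar1 (0.83). Cxcr7 was followed most closely by Gfpt2 (0.93), 0610010O12Rik (0.87), Csrp3 (0.87), 6330406I15Rik (0.87) and the muscle gene Cav3 (0.86), and Darc by the muscle gene Myoz2 (0.88), Ctxn3 (0.85), Vldlr (0.84), Yipf7 (0.84) and Prkaa2 (0.84). For Ccrl1 1426139_a_at they were Far2 at both of its probe sets (0.88 and 0.86), Elovl6 (0.86), Fa2h (0.84) and Pak3 (0.84), and for Ccbp2 1437937_at Rcan2 (0.88), Scn7a (0.88), Gfpt2 (0.85), Avpr1a (0.85) and Rnf128 (0.84).

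Ccbp2 1422112_at, the probe set that separated the genotypes, was most like Apod (r = 0.92), 2010315B03Rik (0.85), Tm2d2 (0.84), Lztfl1 (0.81) and Lars2 (0.80). Each of these 5 was lower in D6-deficient skin over all days, with differences of -3.30, -2.60, -1.19, -2.30 and -1.23 log2 units in that order (adjusted p between 1.2e-09 and 1.1e-11). They were picked by correlation with a probe set that splits the genotypes on these same arrays. Lower levels in D6-deficient skin therefore followed from that choice, and the p-values are no separate evidence. Ccbp2, 2010315B03Rik, Lztfl1 and Lars2 lie on chromosome 9, Tm2d2 on chromosome 8 and Apod on chromosome 16.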

How the data were processed

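RNA of whole back skin was hybridized to 1-colour Affymetrix arrays. According to the study's methods the authors normalized the arrays by RMA in GeneSpring GX. The deposited values are linear-scale intensities per probe set, 1 column per array, and their log2 was analysed here. The genome build behind the probe set annotation is not given in the sources used here. A second deposited table held the sample sheet and gave no values. Its array identifier placed the column of WT day 6 replicate 3, whose header differed from the sample title. After 64 control probe sets and the lowest 20% by mean were left out (lowest mean kept 3.72), 36029 probe sets were fitted with 1 mean per genotype and day over all 30 arrays (limma 3.58.1 in R 4.3.3, lmFit and eBayes), with Benjamini-Hochberg adjustment per comparison and a threshold of 0.05. Intervals are 95%. A comparison of 3 arrays with 3 cannot give an exact permutation p below 0.1, so none is printed. Gene lists use the brightest probe set per gene. Partners named with values are, in each list, up to 4 genes with the largest change from day 0 to day 4 and any gene that passed a genotype comparison by day, and genes of like pattern are the 5 highest correlations with an SD of at least 0.5. From these lists 2 genes are not reported here. Members and lists were chosen with earlier results of these data known. The fit was tested on simulated data. The number of arrays limits the precision. Tables and figures were made with Python 3.11.15, pandas 2.3.3 and matplotlib 3.10.9.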

Additional observations from a re-analysis of the deposited data

Results flagged for a closer look

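The change from day 0 differed between the genotypes by a limma test of the difference itself for 1 member probe set and 10 of the genes read beside the members. Values are the D6-deficient change minus the WT change in log2 units with adjusted p. All arrays of day 0 enter each of them. The 3′ to 5′ actin difference on day 0 was 0.89 to 1.14 in D6-deficient against 0.67 to 0.84 in WT skin. With that difference as a covariate, chosen after seeing the data, Ccl22, Cxcr4 and Ccr9 on day 1 lost their calls, as given below. Ccrl2 kept its call in that fit. On day 2 Ccrl2 gave 1.62 (SE 0.31, adjusted p = 0.0023). Among the CC ligands of D6, Ccl3 gave 3.94 (adjusted p = 4.4e-04), Ccl4 3.35 (adjusted p = 9.5e-06), Ccl5 1.86 (adjusted p = 0.0022), Ccl2 1.28 (adjusted p = 0.018) and Ccl22 -1.68 (adjusted p = 0.0060). The Ccl2 call was lost without WT day 0 replicate 1 or D6-deficient day 0 replicate 3 (adjusted p up to 0.065), and the Ccl22 call with the actin covariate (-1.51, adjusted p = 0.058).

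Among the ELR CXC ligands of Darc, Cxcl3 gave 4.17 (adjusted p = 0.0013) and Cxcl5 2.58 (adjusted p = 0.0032) on day 2. Cxcl12, the ligand of Cxcr7, gave 0.54 (adjusted p = 0.043), a call lost in 15 of 30 fits without 1 array and not made at its other probe sets (0.45 and 0.03). The receptor Cxcr4 gave 1.29 (adjusted p = 0.013), a call lost with the actin covariate (0.92, adjusted p = 0.18). Ccr9 at 1427419_x_at gave 1.53 on day 1 (adjusted p = 0.030), 1.83 on day 2 (adjusted p = 1.8e-04) and 1.61 on day 4 (adjusted p = 0.0070), with the low D6-deficient day 0 arrays in all of them, and the day 1 call was lost in 9 of 30 fits without 1 array and with the actin covariate (1.39, adjusted p = 0.18). The other tested Ccr9 probe sets made none of these calls. They gave 0.42, 0.12 and -0.03 on day 1, -0.04, -0.09 and -0.21 on day 2, and -0.14, 0.21 and -0.06 on day 4. The Ccr9 result thus rests on this single probe set.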

How the results depend on the processing

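Of 36 probe-set-by-day changes from day 0, 14 passed in WT and 16 in D6-deficient skin, as did 6 of 45 genotype differences by day, 1 of 36 differences between changes, 3 of 9 differences over all days and 12 of 54 changes between consecutive days. In fits without 1 array these counts ran from 10 to 16, 12 to 17, 5 to 8, 1 to 2, 3 to 3 and 7 to 14. The 2 came without WT day 2 replicate 3 and the 7 without WT day 4 replicate 3. With the actin covariate, chosen after seeing the data, WT fell to 8 and D6-deficient skin to 4. Requiring over 3-fold left 0 and 2, and 2, 0 and 1 for genotype by day, all days and consecutive days. The methods' t-test (day 0 medians as fixed reference) left 3, 7, 0 and 0 for the first 4 counts and 1 for consecutive days after adjustment, and 11 for differences between changes without it. Leaving out the lower 50% of probe sets gave 2 of 25 by day and 1 of 5 over all days, since fewer members were tested. Averaging the probe sets of a gene gave 10 of 20 in D6-deficient skin, 3 of 25 and 1 of 5, and turned the sign of Ccrl1 1437668_at and 1437669_x_at (D6-deficient day 2 -0.57, 1437668_at day 4 -0.20) and of Rab11a (D6-deficient day 6 -0.01). The cause of the other shifts was not tested. With the replicate number as a block the counts were 15, 14, 7, 1, 3 and 12. The numbers did not pair the samples: 31 of 135 same-numbered pairs correlated over 0.1 in their deviations, against 63 of 270 others. Over 12 alternatives and 30 fits without 1 array, 8613 of 8976 member values kept their direction and side of the threshold, 257 lost their call, 103 gained one and 3 reversed. For the list counts on day 2, over 3-fold left 2 of the 5 higher CC ligands, and the adjusted t-test left 0 there and 0 of the 4 higher ELR CXC ligands.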
